A study of Mus musculus with 30 samples.

Results

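The 39 genes described here belong to the unfolded protein response and the amino acid stress response. They were chosen as a list of gene symbols, 23 ATF4 amino acid genes and 16 endoplasmic reticulum chaperones and their partners, out of 23060 gene symbols measured, and all 39 were found. This list and the further gene lists below were chosen with earlier results of these data known. Counts set beside the share of all genes are therefore descriptive. RNA was measured by non-stranded, poly-A selected sequencing of sorted mouse cells in 30 libraries, of which 29 fall into 11 groups. FGRS KLS cells (3 libraries) were cultured cells annotated as derived, adherent cells kept to day 28 with HUVEC, an endothelial feeder from human umbilical vein. FGRS stands for the factors Runx1, Spi1, Gfi1 and Fosb, which the conversion uses, and KLS the Kit+, lineage-negative, Sca1+ gate. The rEC libraries were freshly isolated cells of the derived genotype, from bone marrow (LKS-SLAM cells, 3 libraries) and from blood (Gr1+ Cd11b+ myeloid cells, 2; B220+ B cells, 3; CD4 T cells, 2; CD8 T cells, 3). The control libraries were the same cell types of the wild type genotype, in the same numbers. LKS-SLAM is the marrow gate enriched for long-term blood stem cells.

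Replicate 2 of the rEC LKS-SLAM and of the rEC B cells is titled as the single clone 47G1, primary, and replicate 3 of both, with 1 rEC CD4 and 2 rEC CD8 libraries, as secondary. FGRS KLS cells differ from control LKS-SLAM cells in conversion, gate and culture together, and these cannot be told apart. From rEC LKS-SLAM cells, also annotated as derived, they differ in gate and in culture against marrow, which cannot be told apart either. The labels give neither strain nor age and do not say that replicates came from separate animals, so p-values measure the spread between libraries. In bulk RNA, fewer cells of a type and less RNA per cell cannot be told apart.

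Cells that run short of amino acids, or whose endoplasmic reticulum fills with unfolded protein, phosphorylate the translation factor eIF2alpha. General translation then falls while the transcription factor ATF4 is made, which switches on genes for amino acid synthesis, amino acid import and tRNA charging. The sensors IRE1, which splices Xbp1 mRNA, and ATF6 act in parallel and raise chaperones, disulfide isomerases and degradation factors of the endoplasmic reticulum. Stem cells of the marrow are known for low protein synthesis and for their sensitivity to unfolded protein. ATF4 and XBP1 are controlled largely after transcription, so an mRNA level does not measure their activity.

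Some promoters of the 39 genes carry letters that the factors of these pathways are known to read. Of the 39, 35 had a RefSeq promoter window on GRCm38.p6 (250 bases before to 50 bases after the start). The CARE motif TGATGNAA, read by ATF4 with a C/EBP partner, lay on either strand in 7 of 21 windows of amino acid genes (Asns, Chac1, Nupr1, Pycr1, Slc7a11, Trib3 and Vldlr), in 1 of 14 windows of the endoplasmic reticulum genes (Herpud1), and in 3.97% of all 32851 windows. The ERSE motif (CCAAT, 9 bases of any kind, CCACG), read by ATF6 and XBP1 with NF-Y, lay in 6 of 14 endoplasmic reticulum windows (Calr, Creld2, Dnajc3, Hsp90b1, Hspa5 and Pdia6), in 0 of 21 amino acid windows and in 0.119% of all windows. Its relative ERSE-II (ATTGG, 1 base of any kind, CCACG) lay in the window of Herpud1 and in 0.0365% of all windows. The CRE TGACGTCA and the UPRE TGACGTGG, present in 1.79% and 0.676% of all windows, matched no window of the 39 genes, and no matches of different motifs overlapped. A match is a run of letters and not a measured site.

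Stretches around these matches are printed for 7 genes whose levels are described in detail, 5′ to 3′ on the strand of the gene with the motif in capitals. The stretch of Asns is chr6:7693210-7693252 on the minus strand, Slc7a11 at chr3:50443633-50443699 on the minus strand and Chac1 at chr2:119351029-119351076 on the plus strand. That of Hspa5 is chr2:34772005-34772063 on the plus strand, Pdia6 at chr12:17266471-17266529 on the plus strand, Calr at chr8:84847055-84847113 on the minus strand and Herpud1 at chr8:94386357-94386407 on the plus strand. Slc7a11 holds 2 matches in opposite directions.
Asns: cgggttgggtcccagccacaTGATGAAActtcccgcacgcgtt
Slc7a11: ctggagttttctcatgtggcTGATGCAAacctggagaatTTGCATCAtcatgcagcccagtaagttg
Chac1: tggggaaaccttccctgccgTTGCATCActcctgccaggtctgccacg
Hspa5: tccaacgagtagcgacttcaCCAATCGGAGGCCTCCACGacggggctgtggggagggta
Pdia6: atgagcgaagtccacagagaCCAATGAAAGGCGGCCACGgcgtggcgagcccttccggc
Calr: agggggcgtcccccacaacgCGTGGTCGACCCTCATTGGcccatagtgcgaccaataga
Herpud1: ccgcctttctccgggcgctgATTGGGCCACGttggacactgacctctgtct

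Levels are given in FPKM, a unit that divides a gene's fragments by its length and the library's size, so the depth behind a value is unknown. FPKM summed to 510115 to 727885 per library, and 10165 to 12550 genes reached 1 FPKM. The library labelled rEC B replicate 1 correlated best with a control CD8 library (Pearson's r = 0.9869 on the log2 scale), with T cell markers summing to 1273 FPKM, against 12.6 to 21.3 in the other grouped B cell libraries. The library labelled rEC LKS-SLAM replicate 2 correlated best with FGRS KLS replicate 1 (r = 0.938) and had the lowest summed stem cell markers of the rEC LKS-SLAM group (200.2 FPKM, against 1217 and 1354). Stem cell markers summed to 147 to 220 FPKM in FGRS KLS cells and to 799.9 to 957 in control LKS-SLAM cells, so the cultured cells carried the stem cell label with lower levels of its markers.

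**Figure D1:**
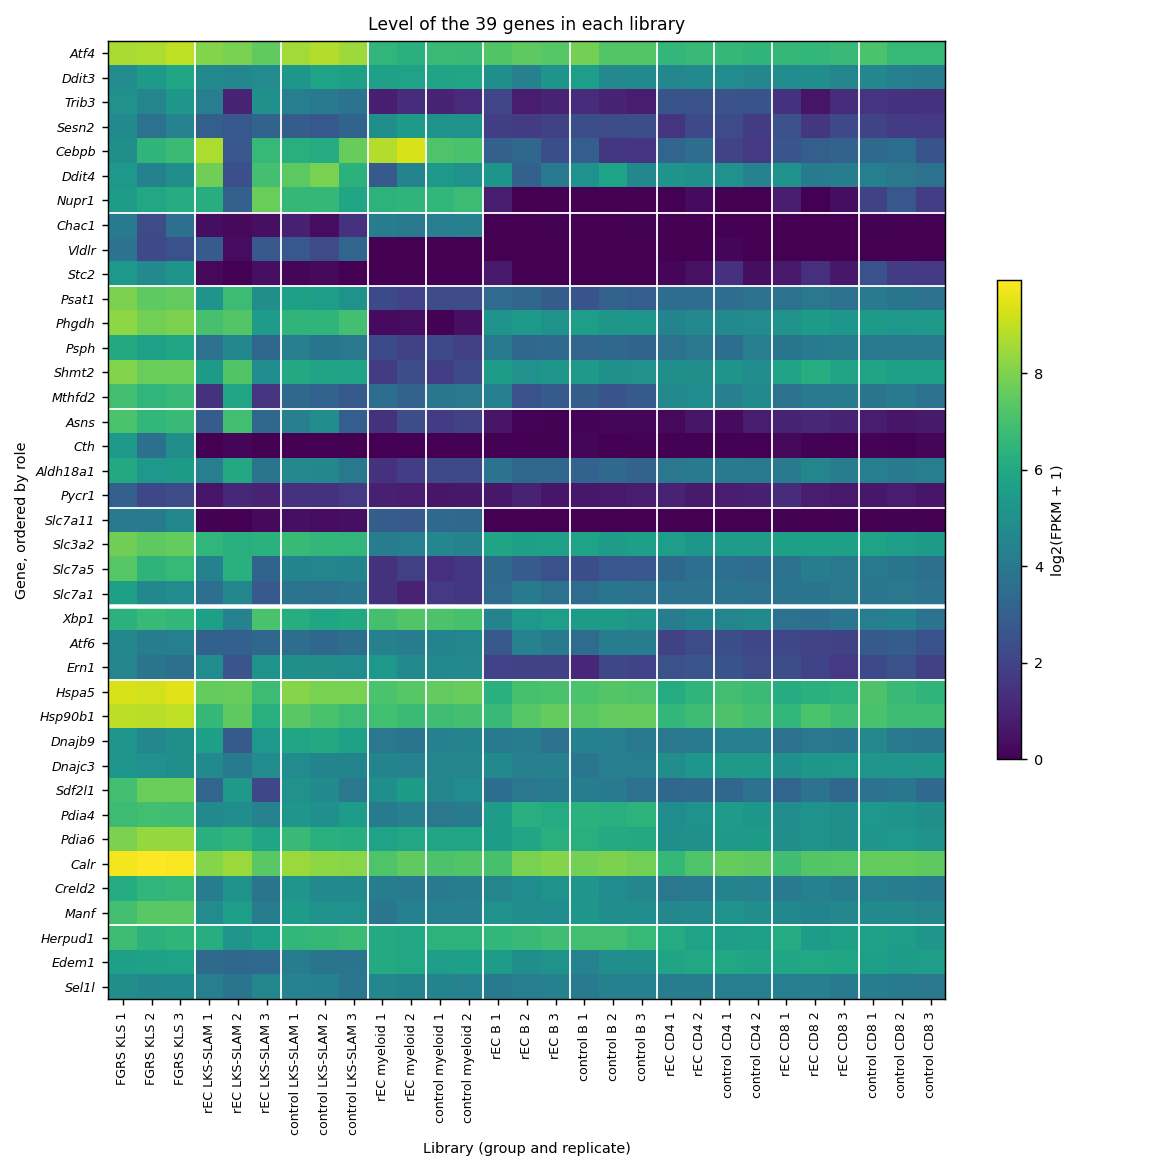
Level of each of the 39 genes (rows, ordered by role; the thick line parts amino acid genes above from endoplasmic reticulum genes below) in each of the 29 grouped libraries (columns), as log2(FPKM + 1) on a colour scale. The 3 FGRS KLS columns are brightest in the transporters and in most synthesis enzymes and folding factors. The myeloid columns are dark in the serine enzymes.

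In cultured FGRS KLS cells, 28 of the 39 genes rose and 1 fell against control LKS-SLAM cells, while 10 did not pass. Of all 14083 genes tested, 17.1% rose and 31.7% fell in this comparison (48.8% in either direction). A call here is an adjusted p under 0.05 in limma, fitted to log2(FPKM + 1), and every difference given below is on that scale, which understates changes of low genes. The median difference of the 39 genes was 1.36, against −0.19 for all genes tested. All 9 enzymes, all 4 transporters and 9 of the 10 luminal folding factors rose. The others that rose were Sesn2, Stc2, Chac1, Edem1, Sel1l and Atf6, while 5 of the 7 regulators and 2 of the 3 sensors did not pass. With quantile normalisation the median of all genes was 0.03 and with rescaling to an equal sum −0.37, and higher genes made up 50.7% and 24.6% of calls in place of 35.1%. Under the same alternatives 28 and 25 of the 39 genes rose and 2 fell in each. In 30 of the 39 genes every FGRS KLS library lay above every control library, as in 22.4% of all genes, and in 3 below, as in 36.2%.

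All 5 enzymes of serine synthesis and mitochondrial folate metabolism rose. Phgdh, which commits a glycolytic intermediate to serine, stood at 298, 224 and 250.3 FPKM in FGRS KLS cells, against 88.5, 88.4 and 123 FPKM in control LKS-SLAM cells, a difference of 1.36 ± 0.28 (SE; limma adjusted p = 0.000565). The groups did not overlap. Psat1, the transaminase of the next step, stood at 246, 175 and 187 FPKM in FGRS KLS cells, against 49.5, 45.5 and 32.2 FPKM in control cells (2.24 ± 0.31). Psph, the phosphatase that releases serine, stood at 65.0, 50.6 and 57.9 FPKM, against 17.8, 13.6 and 14.8 FPKM in control cells (1.84 ± 0.24). These 3 steps thus rose together, each with every FGRS KLS library above every control library.

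Shmt2, which splits serine into glycine and a folate-bound carbon in mitochondria, stood at 263, 199.9 and 208 FPKM in FGRS KLS cells, against 62.1, 55.2 and 51.6 FPKM in control cells (1.96 ± 0.36). Mthfd2, the folate dehydrogenase of proliferating cells, stood at 121, 91.6 and 102 FPKM in FGRS KLS cells, against 9.29, 7.62 and 5.99 FPKM in control cells (3.62 ± 0.69, limma adjusted p = 0.000246). Mthfd2 had the largest difference of the 5 enzymes. In the order of levels within FGRS KLS replicate 1, Phgdh, Shmt2 and Psat1 were above Mthfd2 and Psph.

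The other 4 amino acid enzymes also rose. Asns, which makes asparagine and carries the CARE match printed above, stood at 139, 93.0 and 106 FPKM in FGRS KLS cells, against 18.8, 28.1 and 6.83 FPKM in control cells (2.76 ± 0.63, limma adjusted p = 0.00128). Cth, which makes cysteine from cystathionine, stood at 39.7, 11.8 and 28.8 FPKM in FGRS KLS cells and was listed at 0 in all 3 control libraries. Cth reached 1 FPKM only in FGRS KLS libraries, so it entered the test through the group where it is high. Its call is therefore no separate support, though the counts of genes that rose or lay above other libraries include it. No fold can be given for Cth. Aldh18a1 and Pycr1, both of proline synthesis, differed by 1.13 ± 0.35 and 0.98 ± 0.21, with Pycr1 at 7.25, 3.47 and 3.75 FPKM in FGRS KLS cells, against 1.70, 1.66 and 2.2 FPKM in control cells.

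All 4 amino acid transporter genes rose. Slc7a11, the cystine importer, stood at 15.8, 15.8 and 23.9 FPKM in FGRS KLS cells, against 0.326, 0.258 and 0.325 FPKM in control cells (3.88 ± 0.14, limma adjusted p = 2.35e-14). Its partner chain Slc3a2 stood at 215, 178 and 189.9 FPKM in FGRS KLS cells, against 104, 93.5 and 90.7 FPKM in control cells (1.0 ± 0.12). Slc7a5, the leucine importer that shares this chain, stood at 163, 86.7 and 99.5 FPKM in FGRS KLS cells, against 21.5, 22.2 and 21.5 FPKM in control cells (2.31 ± 0.45). The arginine importer Slc7a1 differed by 1.19 ± 0.30, with 48.2, 24.1 and 26.3 FPKM in FGRS KLS cells, against 13.3, 12.3 and 14 FPKM in control cells. None of the 4 transporter genes overlapped between the groups.

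The regulators behaved otherwise: 1 of 7 rose, 1 fell and 5 did not pass. Atf4 itself stood at 409, 413 and 501 FPKM in FGRS KLS cells, against 374, 441 and 353 FPKM in control cells (0.18 ± 0.17, limma adjusted p = 0.409). The groups overlapped, and the difference was −0.31 with quantile normalisation and −0.02 after rescaling. Ddit3, the transcription factor CHOP of prolonged stress, stood at 27.0, 41.2 and 55.3 FPKM, against 37.1, 52.9 and 48.3 FPKM in control cells (−0.20 ± 0.24). Trib3, a pseudokinase that curbs ATF4, stood at 31.3, 21.8 and 37.6 FPKM, against 18.1, 16.5 and 12.8 FPKM in control cells (0.87 ± 0.60). Every FGRS KLS library was above every control library for Trib3, though it did not pass. It did when rEC LKS-SLAM replicate 2 and rEC B replicate 1 were left out, with an adjusted p of 0.00284 in limma. Without these libraries 8662 of all genes passed, in place of 6870.

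Sesn2, a brake on the kinase mTORC1, rose by 1.31 ± 0.25, with 24.9, 11.9 and 20.3 FPKM in FGRS KLS cells, against 6.64, 5.65 and 8.25 FPKM in control cells. Ddit4, another mTORC1 brake that also answers to glucocorticoids and low oxygen, was the 1 gene of the 39 that passed as lower. Dnajb9 passed as lower too with quantile normalisation or rescaling. With array quality weights, or with these groups alone, both Dnajb9 and Ern1 passed as lower (limma adjusted p = 0.00349 and 0.0125 with the groups alone). Of all genes, 10144 passed with weights and 6676 with the groups alone, in place of 6870. Ddit4 stood at 38.4, 19.4 and 29.3 FPKM in FGRS KLS cells, against 172, 242 and 83.1 FPKM in control cells (−2.39 ± 0.86, limma adjusted p = 0.0252). The fall no longer passed without FGRS KLS replicate 2 (−2.14) or 3 (−2.42), or without control replicate 1 (−2.30) or 2 (−2.06). Cebpb, a partner of ATF4 at CARE sites, and Nupr1, a small stress protein, overlapped between the groups. Cebpb stood at 30.1, 90.2 and 107 FPKM in FGRS KLS cells, against 72.9, 68.9 and 196 FPKM, and Nupr1 at 42.1, 59.6 and 70.7 FPKM, against 97.6, 95.4 and 56.9 FPKM in control cells.

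Of the remaining amino acid genes, the secreted glycoprotein gene Stc2 had the largest difference of all members with values above 0 in a control library. Stc2 stood at 38.7, 25.6 and 34.4 FPKM in FGRS KLS cells, against 0.104, 0.196 and 0 FPKM in control cells (4.93 ± 0.26, limma adjusted p = 1.02e-11). Chac1, which breaks down glutathione, stood at 15.8, 3.94 and 11.4 FPKM in FGRS KLS cells, against 0.846, 0.256 and 1.68 FPKM (2.46 ± 0.29). Vldlr, a lipoprotein receptor, stood at 12.8, 3.62 and 4.60 FPKM, against 5.58, 3.76 and 8.55 FPKM in control cells. Its groups overlapped and its difference of 0.09 ± 0.44 did not pass, and was −0.40 without FGRS KLS replicate 1 and −0.16 without control replicate 2.

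**Figure D2:**
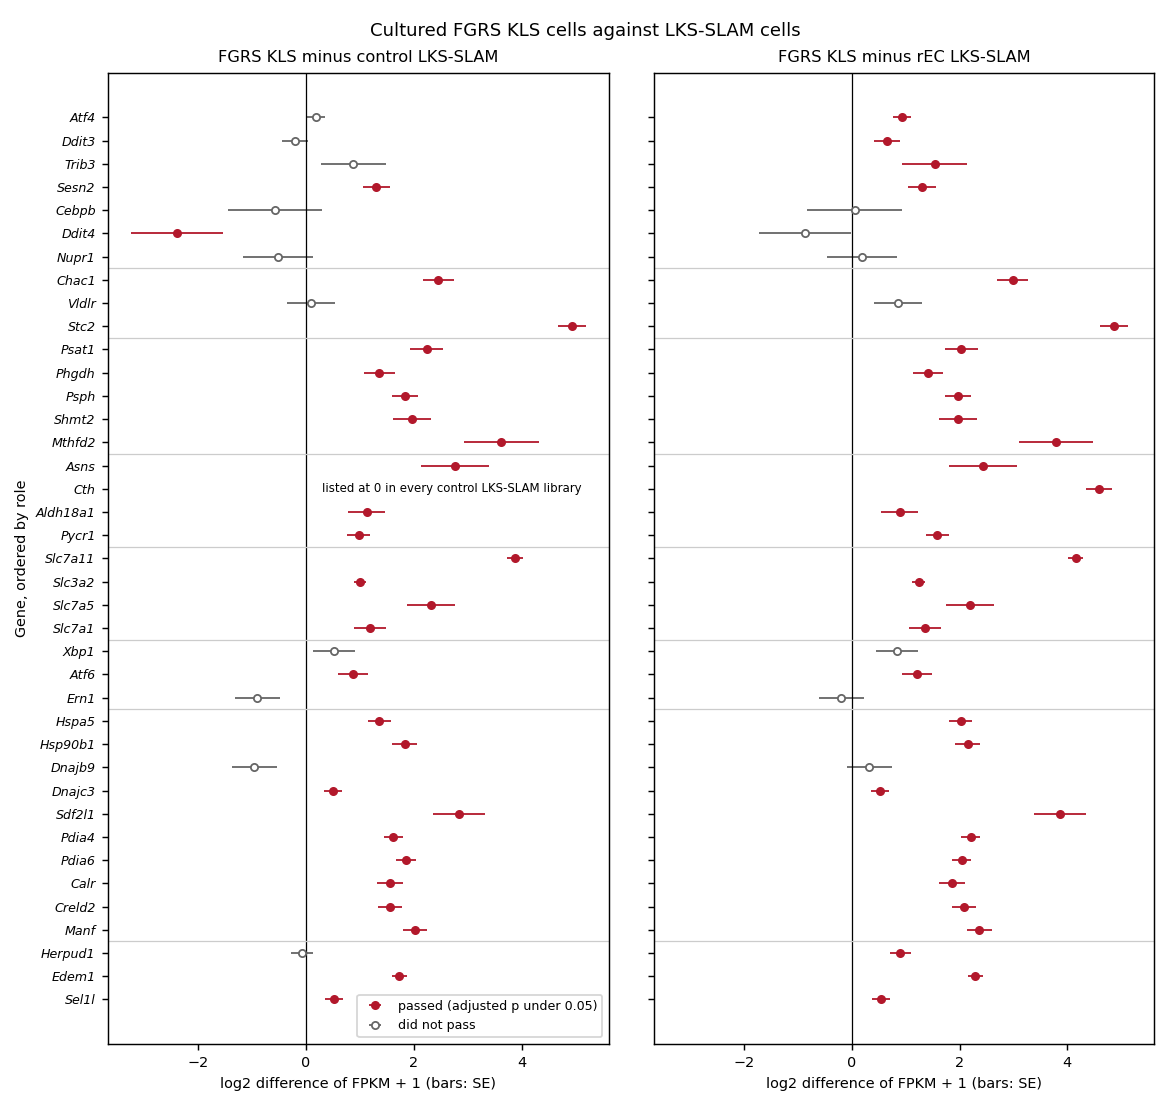
Difference of each gene (rows, ordered by role) between FGRS KLS and control LKS-SLAM cells (left) and between FGRS KLS and rEC LKS-SLAM cells (right), on the log2(FPKM + 1) scale with the SE of limma as bars (n = 3 libraries each). Filled points passed at an adjusted p under 0.05. On the left 28 genes rose, counting Cth, which is named without a point because it was listed at 0 in the control cells, and Ddit4 fell.

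Of the 10 folding factors of the endoplasmic reticulum, 9 rose and 1 did not pass. Hspa5, the chaperone BiP, stood at 647, 606 and 719 FPKM in FGRS KLS cells, against 278, 242 and 245 FPKM in control cells (1.36 ± 0.22, limma adjusted p = 3.67e-05). Hsp90b1, its partner GRP94, stood at 488, 472 and 496 FPKM, against 166, 134 and 111 FPKM in control cells (1.83 ± 0.23). Calr, which folds glycoproteins with calcium, was the most abundant member at 867, 971 and 909.6 FPKM in FGRS KLS cells, against 343, 304 and 282 FPKM (1.56 ± 0.24). In each case the 3 FGRS KLS libraries lay close together and well above the control range. Hspa5 and Calr both hold the ERSE letters printed above.

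Sdf2l1, a partner of BiP, had the largest difference of the folding factors, with 119, 209 and 200.4 FPKM in FGRS KLS cells, against 31.5, 26.1 and 14.6 FPKM in control cells (2.84 ± 0.48). Manf, a secreted factor retained by BiP, stood at 122, 165 and 165 FPKM, against 44.3, 33.4 and 31.8 FPKM in control cells (2.02 ± 0.23). The disulfide isomerases Pdia6 and Pdia4 differed by 1.85 ± 0.18 and 1.62 ± 0.18, with Pdia6 at 251, 330.3 and 328 FPKM in FGRS KLS cells, against 101, 78.8 and 70.8 FPKM. Creld2, a resident protein induced with the chaperones, differed by 1.56 ± 0.22. Dnajc3, a co-chaperone of BiP that also restrains eIF2alpha kinases, differed least of those that rose, by 0.49 ± 0.17 (36.1, 31.9 and 29.8 FPKM in FGRS KLS cells, against 26.4, 21.1 and 21.2 FPKM). Dnajb9, a co-chaperone that holds IRE1 in check, went the other way without passing, at 35.1, 22.9 and 29.5 FPKM in FGRS KLS cells, against 57.4, 63.4 and 50.9 FPKM in control cells (−0.96 ± 0.42, limma adjusted p = 0.0612). Its groups did not overlap, and it passed as lower with quantile normalisation (−1.09).

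Of the 3 degradation genes 2 rose. Edem1, which pulls misfolded glycoproteins out of the folding cycle, stood at 47.4, 49.9 and 53.4 FPKM in FGRS KLS cells, against 17.3, 13.0 and 13.3 FPKM in control cells (1.73 ± 0.14, limma adjusted p = 1.29e-08). Sel1l, an adaptor of the ubiquitin ligase HRD1, differed by 0.52 ± 0.17 (29, 23.5 and 25.6 FPKM in FGRS KLS cells, against 20.4, 19.4 and 14.0 FPKM). Herpud1, a scaffold of the same ligase and the gene with both a CARE and an ERSE-II match, overlapped between groups at 113, 82.6 and 88.1 FPKM, against 93.6, 96.0 and 107 FPKM in control cells (−0.08 ± 0.20). Of the sensors and their transcription factor, Atf6 rose by 0.88 ± 0.28. Ern1, which encodes IRE1, stood at 21.8, 12.9 and 11.7 FPKM, against 29.7, 29.1 and 27.6 FPKM (−0.90 ± 0.42, limma adjusted p = 0.0816). Xbp1 stood at 82.1, 101 and 93.4 FPKM, against 71.4, 57.2 and 64.4 FPKM in control cells (0.51 ± 0.39). Neither passed, though the libraries of the groups did not overlap for either gene. Xbp1 passed as higher with array quality weights or with these groups alone (limma adjusted p = 0.00336 and 0.0177). With weights 10144 of all genes passed, in place of 6870. The FPKM values do not tell spliced from unspliced Xbp1.

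The smallest rises were the least stable. Dnajc3 did not pass after rescaling (0.31), without FGRS KLS replicate 1 (0.42) or without control replicate 2 (0.44) or 3 (0.44). Sel1l did not pass after rescaling (0.34), without FGRS KLS replicate 1 (0.45) or without control replicate 3 (0.37). Atf6 did not pass after rescaling (0.71), without FGRS KLS replicate 1 (0.75) or without control replicate 2 (0.79). Aldh18a1 did not pass without FGRS KLS replicate 1 (0.92) or control replicate 3 (0.92). Between 26 and 28 of the 39 genes passed when any 1 library of these groups was left out, against 29 with all. Without FGRS KLS replicate 1, Ern1 passed as lower (−1.16) and Ddit3 stood at 0.07, and without FGRS KLS replicate 2, Herpud1 stood at 0.01.

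Genes next to these pathways moved in the same comparison. Of 20 cytosolic aminoacyl-tRNA synthetases, the enzymes that charge tRNAs, 16 rose and 0 fell. Gars (glycine) averaged 165 ± 19.6 FPKM in FGRS KLS cells and 36.5 ± 9.83 FPKM in control cells (SD, n = 3 each), with an adjusted p of 1.26e-05 in limma. Aars (alanine) averaged 86.0 ± 10.7 FPKM in FGRS KLS cells and 22.2 ± 0.88 FPKM in control cells (1.90). Cars and Tars differed by 1.78 and 1.71. Of 18 further amino acid enzymes, transporters and factors tested, 9 rose and 2 fell, with the arginine transporter Slc7a3 higher by 3.39 and the mitochondrial folate enzyme Aldh1l2 by 2.30, and the leucine exporter Slc43a1 lower by −2.40. The neutral amino acid transporter Slc1a4 was higher by 2.08.

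Of 23 further folding and degradation genes tested, 15 rose and 2 fell. Ero1l, the oxidase that supplies disulfides, averaged 89.5 ± 14.7 FPKM in FGRS KLS cells and 14.1 ± 2.0 FPKM in control cells (SD, n = 3 each; 2.58 ± 0.14). P4hb, the main disulfide isomerase, averaged 526 ± 53.4 FPKM in FGRS KLS cells and 167 ± 38.7 FPKM in control cells (1.67). Hyou1 and Dnajb11, both partners of BiP, were higher by 1.66 and 1.60. The 13 genes of eIF2alpha and its exchange factor, kinases and phosphatases did not move one way: 4 rose, among them Eif2s1, which encodes eIF2alpha (0.996), and 3 fell. Those that fell were Ppp1r15a, the stress-induced phosphatase subunit GADD34, at 60.6 ± 14.6 FPKM in FGRS KLS cells and 338 ± 54.8 FPKM in control cells (SD, n = 3 each; −2.48 ± 0.61), and the kinases Eif2ak2 (−0.93) and Eif2ak4 (−0.71).

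Other cell markers moved with these differences. The 12 cell cycle genes averaged 6.28 to 6.52 on the log2(FPKM + 1) scale in FGRS KLS libraries and 4.57 to 5.57 in control libraries. All 10 macrophage markers reached 1 FPKM in every FGRS KLS library and summed to 280.3 to 1830 FPKM, against 33.7 to 36.2 FPKM in control libraries, where 6 to 8 reached 1 FPKM and Mmp12 was listed at 0. The 7 erythroid markers summed to 1.95 to 4.17 FPKM in FGRS KLS cells and to 341 to 1090.3 FPKM in control cells, and the 7 eosinophil markers to 7.88 to 62.6 FPKM and to 37.6 to 4908 FPKM. Of the 11 neutrophil markers, 8 to 11 reached 1 FPKM in FGRS KLS libraries and all did in control libraries, with sums of 2567 to 8696 FPKM and 2251 to 3833 FPKM. The 9 plasma cell markers, cells known for high endoplasmic reticulum load, summed to 198 to 412 FPKM in FGRS KLS cells and to 655 to 799.8 FPKM in control cells. The part of these cells and of the cell cycle in the stress gene differences was not tested.

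Within the FGRS KLS group both branches differed by library. Replicate 1 was the highest of the 3 in 17 of the 23 amino acid genes, including all 5 serine and folate enzymes, and replicate 2 was the lowest in 18. Replicate 1 was the lowest in 6 of the 10 folding factors, as with Sdf2l1 at 119 FPKM against 209 and 200.4 FPKM. All genes summed to 588399 FPKM in replicate 1, against 715609 and 717141 FPKM in replicates 2 and 3. The order of libraries is that of the deposited FPKM, without rescaling to an equal sum. Macrophage markers summed to 280.3 FPKM in replicate 1, 1830 FPKM in replicate 2 and 1210 FPKM in replicate 3. The amino acid enzymes were thus highest in the culture library with the lowest macrophage marker level, and even replicate 2 lay above the control range for all 5 serine and folate enzymes.

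**Figure D3:**
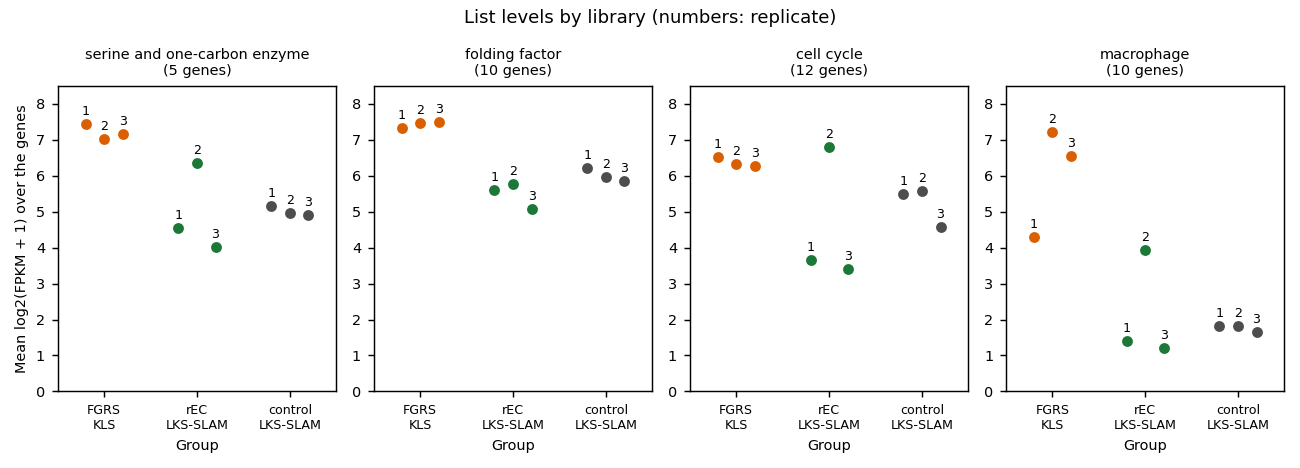
Mean log2(FPKM + 1) per library over the 5 serine and folate enzymes, the 10 folding factors, 12 cell cycle genes and 10 macrophage markers in FGRS KLS, rEC LKS-SLAM and control LKS-SLAM cells. Each point is a library with its replicate number. The enzymes stood at 7.03 to 7.44 in FGRS KLS libraries and the rEC library that came nearest, replicate 2 at 6.36, was also the highest in the cell cycle genes (6.80).

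Set against rEC LKS-SLAM cells, the same FGRS KLS libraries were higher in 32 of the 39 genes and lower in 0, against 17.2% of all genes tested that rose and 27.8% that fell. In 29 they lay above every rEC library, as in 12.9% of all genes, and in 0 below, as in 20.3%. Without rEC replicate 2 the counts were 28 higher and 5 lower, and the 5 were Cebpb, Ddit4, Nupr1, Dnajb9 and Ern1. With array quality weights they were 33 and 5, with Vldlr in place of Nupr1. All genes called numbered 11581 with weights, in place of 6335. This comparison shares the FGRS KLS libraries with the one before. The 5 serine and folate enzymes, the 4 other amino acid enzymes, the 4 transporters, 9 of the 10 folding factors and all 3 degradation genes passed, as did 4 of the 7 regulators. Slc7a11 differed by 4.16 ± 0.14, with 0.0322, 0 and 0.194 FPKM in the rEC libraries beside the FGRS KLS values given above. Sdf2l1 differed by 3.86 ± 0.48 from the rEC cells, which stood at 8.35, 40.0 and 3.35 FPKM. Edem1 differed by 2.29 ± 0.14 from rEC cells at 9.79, 8.97 and 9.60 FPKM. Hspa5 differed by 2.02 ± 0.22 from rEC cells at 193, 195 and 109.8 FPKM, again with every culture library above every rEC library. Asns passed (2.44 ± 0.63) although rEC replicate 2, at 119 FPKM, lay within the FGRS KLS range. Of the lists next to these pathways, 14 of 20 synthetases, 12 of 18 further amino acid genes and 17 of 23 further folding genes rose, and 0, 2 and 1 of them fell.

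A further 4 genes that had not passed against control cells passed against rEC cells. Atf4 differed by 0.93 ± 0.17 (limma adjusted p = 0.000189) from rEC cells at 274, 244 and 183 FPKM, with no overlap between groups. Herpud1 differed by 0.90 ± 0.20, Ddit3 by 0.65 ± 0.24 and Trib3 by 1.54 ± 0.60. Trib3 rested on rEC replicate 2, where it stood at 0.923 FPKM against 18.2 and 30.2 FPKM in the other rEC libraries, and its difference without that replicate was 0.32 and did not pass. Ddit3 did not pass when FGRS KLS replicate 2 or 3 or any rEC replicate was left out (0.41 to 0.69). Aldh18a1, for which rEC replicate 2 at 62.4 FPKM was as high as any culture library, fell short without rEC replicate 1 or 3 or FGRS KLS replicate 1 or 3 (0.45 to 0.96). The differences of Dnajc3 (0.31) and Sel1l (0.34) did not pass without rEC replicate 2, nor did that of Dnajc3 without FGRS KLS replicate 1 (0.45), nor that of Trib3 without any 1 FGRS KLS replicate (1.37 to 1.75). Fitted to these 6 libraries alone, in which the rEC spread is wide, 17 of the 39 passed. Of all genes, 900 then passed in place of 6335.

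Across the whole series, every FGRS KLS library lay above every one of the 26 other grouped libraries in 21 of the 39 genes, as in 3.99% of all genes tested, and in 0 of the 39 below them all, as in 3.52% of all genes. The 21 were all 5 serine and folate enzymes, all 4 transporters, 8 folding factors, Cth, Pycr1, Stc2 and Sel1l. Of these, Cth reached 1 FPKM in no other group and was tested only through the FGRS KLS libraries. None of the 7 regulators and none of the 3 sensors was among them. By group means, FGRS KLS cells were highest of the 11 groups in 26 of the 39 genes. Control or rEC myeloid cells were highest in another 9, among them Cebpb, Chac1, Sesn2, Xbp1, Atf6, Ern1 and Edem1.

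**Figure D4:**
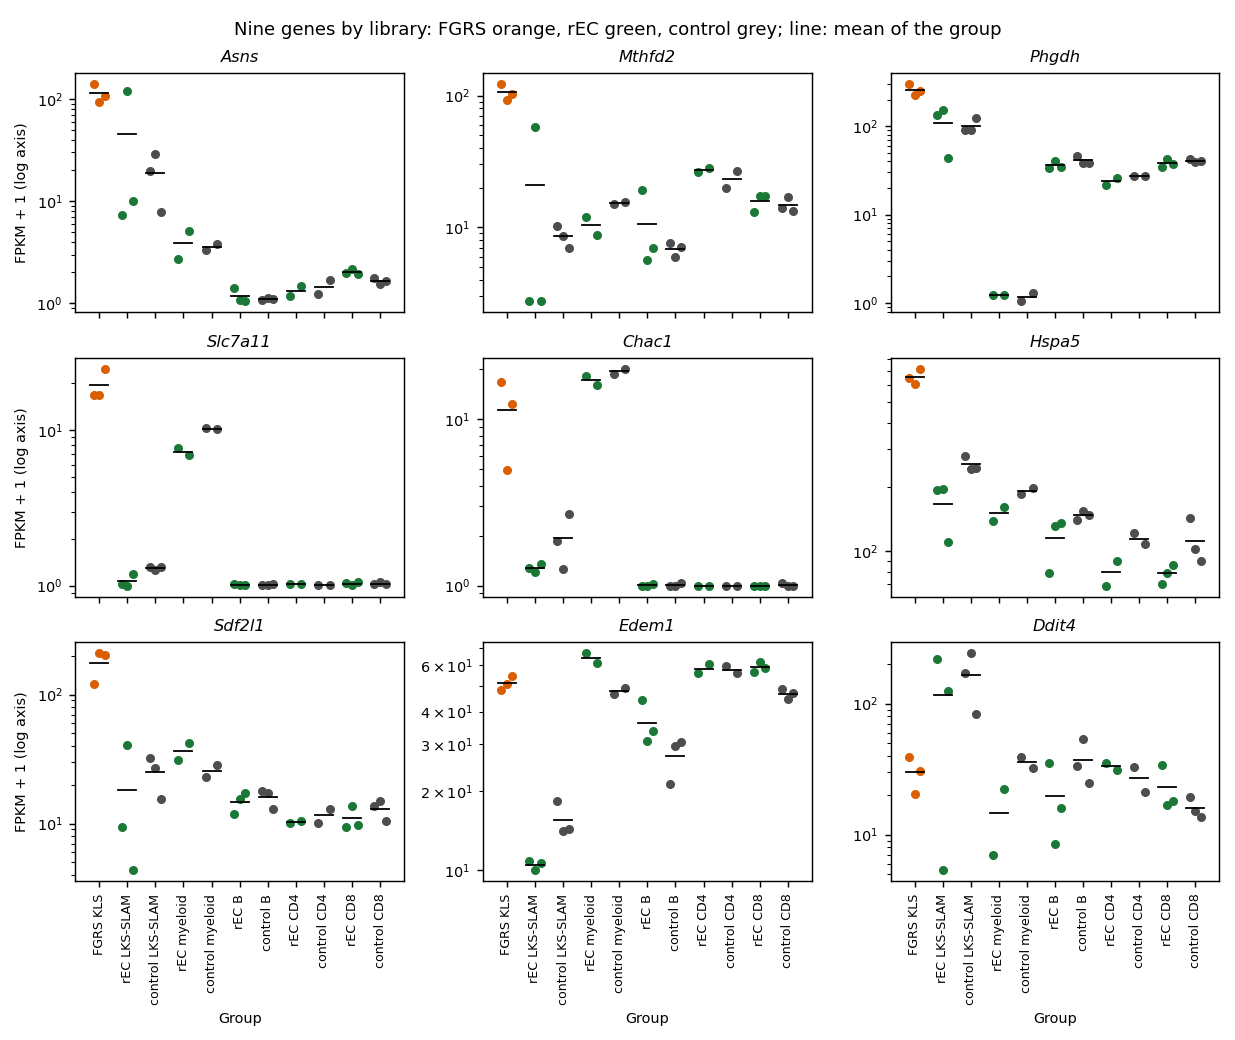
FPKM + 1 on a log axis for Asns, Mthfd2, Phgdh, Slc7a11, Chac1, Hspa5, Sdf2l1, Edem1 and Ddit4 in each library of the 11 groups (points; FGRS orange, rEC green, control grey; the line is the group mean). By group mean, FGRS KLS cells were highest in Asns, Mthfd2, Phgdh, Slc7a11, Hspa5 and Sdf2l1, while Chac1 was highest in control myeloid cells, Edem1 was lowest in LKS-SLAM cells and Ddit4 was highest, by mean, in control LKS-SLAM cells.

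Between rEC and control LKS-SLAM cells, the comparison of derived with native stem cells, 2 of the 39 genes fell and 0 rose, against 1.25% of all genes that fell and 0.071% that rose. Herpud1 stood at 72.3, 35.0 and 48.3 FPKM in rEC cells, against 93.6, 96.0 and 107 FPKM in control cells (−0.98 ± 0.20, limma adjusted p = 0.0118). Atf4 stood at 274, 244 and 183 FPKM in rEC cells, against 374, 441 and 353 FPKM in control cells (−0.75 ± 0.17, limma adjusted p = 0.0256). Neither gene overlapped between the groups. The Atf4 call was lost when control replicate 1 (−0.78), control replicate 2 (−0.66) or rEC replicate 3 (−0.58) was left out, and neither gene passed when these 6 libraries were fitted alone. In all, 10 of the 39 genes did not overlap and were lower in rEC cells, as in 4.37% of all genes, and 0 were higher without overlap, as in 2.07%. The 10 were Atf4, Ddit3, Slc7a11, Slc3a2, Pycr1, Hspa5, Herpud1, Dnajb9, Pdia4 and Edem1. The median difference of the 39 genes was −0.33 and that of all genes −0.05.

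The rEC libraries disagreed with each other in the amino acid enzymes and in the regulators. Replicate 2 was the highest of the 3 in all 5 serine and folate enzymes and all 4 other amino acid enzymes. Mthfd2 stood at 1.75, 56.5 and 1.79 FPKM in the rEC libraries, against 9.29, 7.62 and 5.99 FPKM in control cells. Asns stood at 6.31, 119 and 9.07 FPKM in the rEC libraries, against 18.8, 28.1 and 6.83 FPKM. Replicate 2 thus lay above the control range for both genes, while replicates 1 and 3 lay below it for Mthfd2. In the regulators the order turned: replicate 2 was the lowest in 6 of 7, with Ddit4 at 217, 4.34 and 125 FPKM in the rEC libraries, against 172, 242 and 83.1 FPKM in control cells. Cebpb spanned 421, 5.52 and 98.8 FPKM.

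Without rEC replicate 2, the library that stood with the cultured cells, 12 of the 39 genes fell and 0 rose. These were Atf4, Shmt2, Mthfd2, Pycr1, Hspa5, Hsp90b1, Herpud1, Sdf2l1, Pdia4, Edem1, Creld2 and Manf, and across all genes 1256 passed in place of 186. Cell cycle genes averaged 3.65, 6.80 and 3.42 in the rEC libraries on the log2(FPKM + 1) scale, against 5.49, 5.57 and 4.57 in control libraries, so the library with high amino acid enzymes was also the one with high cell cycle genes. Plasma cell markers summed to 203, 95.5 and 48.2 FPKM in the rEC libraries and to 655 to 799.8 FPKM in control libraries. With all 3 rEC libraries kept, 1 of the 23 further folding genes fell, Derl3, a degradation factor that is itself among those plasma cell markers. Derl3 averaged 1.55 ± 1.39 FPKM in rEC cells and 8.30 ± 1.73 FPKM in control cells (SD, n = 3 each). The part of cell cycle and plasma cells in these differences was not tested. No synthetase of the 20 and no gene of the other lists passed in limma with all 3 rEC libraries kept.

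In blood, the same rEC against control comparison called few of the 39 genes. In myeloid cells limma called 0, with 2 at an unadjusted p under 0.05 (Slc7a11 and Edem1), against 0.227% of all genes called. In B cells it called 0, with 2 at an unadjusted p under 0.05 (Pdia4 and Edem1), and 0% of all genes were called. The B cell values here and below include rEC B replicate 1, the library with high T cell markers. Pdia4 stood at 42.3 FPKM in that replicate, against 74.5 and 67.1 FPKM in replicates 2 and 3. Edem1 stood at 43.1 FPKM there, against 29.9 and 32.6 FPKM. Without that replicate the count was also 0. In CD4 cells it called 0, with 1 at an unadjusted p under 0.05 (Calr), against 0.0213% of all genes. In CD8 cells it called 1, lower, against 1.13% of all genes in either direction (0.987% lower). That gene was Stc2, at 0.593, 1.52 and 0.549 FPKM in rEC cells, against 4.67, 2.41 and 2.22 FPKM in control cells (−1.11 ± 0.26, limma adjusted p = 0.0392). Its groups did not overlap, but the call was lost when control replicate 1 (−0.85), control replicate 2 (−1.22), rEC replicate 1 (−1.004) or rEC replicate 3 (−0.98) was left out.

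Some members separated the origins in blood, all but Stc2 in CD8 cells without passing. In myeloid, CD4 and CD8 cells more members lay lower than higher in rEC cells, as did more of all genes. In myeloid cells 4 of the 39 genes lay above every control library and 16 below, as did 15.6% and 28.6% of all genes. In CD4 cells 3 lay above and 12 below (16.1% and 21.1% of all genes), and 9 of the 10 folding factors were among the 12. Plasma cell markers summed to 39.9 to 45.5 FPKM in rEC CD4 and to 73.5 to 118 FPKM in control CD4 libraries. The part of plasma cells in the CD4 differences was not tested. In CD8 cells 2 lay above and 6 below (14.9% and 15.7% of all genes), and in B cells 2 and 3 (4.96% and 1.98%). The genes described next were chosen after their values were seen. Hspa5 lay below every control library in each of the 4 blood cell types, for example at 67.8 and 89.3 FPKM in rEC CD4 cells, against 119.98 and 107 FPKM in control CD4 cells. In rEC B cells it stood at 78.0 FPKM in replicate 1, which has high T cell markers, and at 131 and 134 FPKM in the others. B cell markers summed to 18.1 to 68.0 FPKM in rEC CD8 and to 217 to 512 FPKM in control CD8 libraries. The part of other cells in the Hspa5 values was not tested. Slc7a11 stood at 6.65 and 5.91 FPKM in rEC myeloid cells, against 9.37 and 9.12 FPKM in control myeloid cells. Cebpb stood at 444 and 643 FPKM in rEC myeloid cells, against 143 and 135 FPKM in control myeloid cells, and at 8.36 and 10.6 FPKM in rEC CD4 cells, against 3.13 and 2.2 FPKM in control CD4 cells. It passed in both cell types when their libraries were fitted alone. Edem1 stood at 65.7 and 60.1 FPKM in rEC myeloid cells, against 45.5 and 48.2 FPKM in control myeloid cells. In CD8 cells Edem1 stood at 55.6, 60.6 and 57.7 FPKM in rEC cells, against 47.7, 43.6 and 46.2 FPKM in control cells. In LKS-SLAM cells Edem1 went the other way, at 9.79, 8.97 and 9.60 FPKM in rEC cells, against 17.3, 13.0 and 13.3 FPKM in control cells. The test of that contrast, the origin difference in LKS-SLAM cells minus its mean over the 4 blood cell types, called 2 of the 39 genes, both lower, against 0.568% of all genes (0.554% lower). They were Edem1 (−0.86 ± 0.16, limma adjusted p = 0.0140) and Herpud1 (−0.997 ± 0.23, limma adjusted p = 0.0493). The Edem1 call was lost without control LKS-SLAM replicate 1 (−0.73), and the Herpud1 call without most single libraries.

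The native lineages differed far more than the origins. Control myeloid cells were higher than control LKS-SLAM cells in 6 of the 39 genes and lower in 19. These counts were close to the shares of all genes, 17.4% and 49.1%. Of the 5 serine and folate enzymes 4 fell. Phgdh stood at 0.0526 and 0.311 FPKM in control myeloid cells, against 88.5, 88.4 and 123 FPKM in control LKS-SLAM cells (−6.41 ± 0.32, limma adjusted p = 5.86e-13). Shmt2 stood at 2.63 and 3.57 FPKM, against 62.1, 55.2 and 51.6 FPKM (−3.81 ± 0.40). Psat1 was lower by −3.13, Psph by −2.0 and Slc7a5 by −3.01, and 16 of the 20 synthetases fell. Mthfd2 did not follow, at 14.0 and 14.5 FPKM in control myeloid cells, against 9.29, 7.62 and 5.99 FPKM in control LKS-SLAM cells.

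The 6 genes higher in control myeloid cells were of other kinds. Chac1 stood at 17.9 and 19.2 FPKM, against 0.846, 0.256 and 1.68 FPKM in control LKS-SLAM cells (3.41 ± 0.32), and Slc7a11 at 9.37 and 9.12 FPKM, against 0.326, 0.258 and 0.325 FPKM (2.98 ± 0.16). These glutathione genes, both with a CARE match, were higher there, while Asns, also printed with that match, was lower, at 2.29 and 2.83 FPKM. Sesn2 (2.14), Edem1 (1.63), Xbp1 (1.08) and Atf6 (1.02) were higher too. Xbp1 did not pass without either control myeloid library (1.02 without replicate 1, 1.14 without replicate 2), nor without control LKS-SLAM replicate 2 (1.004) or 3 (1.09). Asns (−2.11), Dnajb9 (−1.42), Creld2 (−0.69) and Pdia6 (−0.55) each lost their call without control myeloid replicate 1. Creld2 (−0.75) and Pdia6 (−0.55) also lost theirs without control myeloid replicate 2, and likewise without control LKS-SLAM replicate 1 (−0.58 and −0.41). With any 1 library left out 20 to 25 of the 39 passed.

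Control B cells were higher than control LKS-SLAM cells in 2 genes and lower in 22, against 18.9% and 36.7% of all genes. All 7 regulators fell in B cells. Nupr1 was listed at 0 in all 3 control B libraries, against 97.6, 95.4 and 56.9 FPKM in control LKS-SLAM cells, and Cebpb stood at 6.89, 2.02 and 1.78 FPKM, against 72.9, 68.9 and 196 FPKM (−4.64). Asns stood at 0.0766, 0.116 and 0.101 FPKM, against 18.8, 28.1 and 6.83 FPKM (−3.91). Pdia4 (1.10 ± 0.18) and Edem1 (0.80 ± 0.14) were the genes that rose, with Pdia4 at 80.4, 76.0 and 83.5 FPKM, against 36.8, 30.8 and 43.9 FPKM. Among further folding genes Ero1lb, a second disulfide oxidase, was higher by 3.34 and Syvn1, the ligase HRD1, by 2.34, and the kinase gene Eif2ak3 (PERK) by 2.21. Of the 23 further folding genes 5 rose and 12 fell, and of the 13 genes of eIF2alpha kinases and phosphatase subunits 2 rose and 4 fell. Among the 10 folding factors 3 fell in B cells, Hspa5 (−0.80), Dnajb9 (−1.64) and Dnajc3 (−0.43). The sensor gene Ern1 (IRE1) also fell, with 1.14, 3.41 and 3.04 FPKM in control B cells, against 29.7, 29.1 and 27.6 FPKM in control LKS-SLAM cells (−3.14).

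Control T cells, taken as the mean of CD4 and CD8, were higher than control LKS-SLAM cells in 3 genes and lower in 24, against 20.4% and 36.3% of all genes. Edem1 (1.75 ± 0.13), Stc2 (1.30 ± 0.24) and Dnajc3 (0.71 ± 0.15) rose. All 7 regulators and all 3 sensors fell, with Atf4 at 96.1 and 88.8 FPKM in control CD4 and 138, 98.3 and 100.5 FPKM in control CD8 cells, against 374, 441 and 353 FPKM in control LKS-SLAM cells (−1.93 ± 0.15). Of the 5 serine and folate enzymes Psat1 (−1.65) and Phgdh (−1.59) fell, and of the 4 other amino acid enzymes Asns (−3.43) and Pycr1 (−0.77), while the other 5 enzymes did not pass. Mthfd2, one of those 5 (1.11 ± 0.62), stood at 19.0 and 25.6 FPKM in control CD4 and 13.0, 16.0 and 12.3 FPKM in control CD8 cells. All 3 lineage comparisons use the same control LKS-SLAM libraries, and Edem1 was higher and Atf4 lower in each of them.

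In the B cell comparison several small falls rested on single libraries. Ddit3, Ddit4, Sesn2 and Slc7a11 each lost their call without at least 4 of the 6 libraries of the comparison taken singly, Dnajc3 without control B replicate 1 (−0.32) or control LKS-SLAM replicate 1 (−0.33), Psph without control LKS-SLAM replicate 1 (−0.66) and Chac1 without control LKS-SLAM replicate 3 (−0.59). In the T cell comparison Chac1 (−0.60) and Slc7a11 (−0.34) lost theirs without control LKS-SLAM replicate 3, and Creld2 (−0.42) and Slc7a11 (−0.34) without replicate 1. With quantile normalisation Slc7a11 turned to 0.12 in B and 0.060 in T cells, Sesn2 to 0.11 in B cells and Pycr1 to 0.19 in myeloid, 0.37 in B and 0.059 in T cells. The median of all genes was −0.61, −0.25 and −0.21 in the myeloid, B and T cell comparisons and −0.03, 0.08 and 0.07 after quantile normalisation, and the share of higher calls was 26.2%, 33.9% and 36.0%, and 48.8%, 55.9% and 55.0% after it.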

How the data were processed

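Gene expression was deposited as FPKM, 1 value per gene symbol and library, for 23060 symbols, and 3744 of them were at 0 in every library. Per the submitters' processing notes the authors used Cufflinks 2.2.1, TopHat2 2.1.0, Trimmomatic 0.36, bcl2fastq 2.17 and FastQC 0.11.5 with the mm10 build; order and settings are not given in the sources used here. Per the labels' protocols cells were purified by FACS and libraries were TruSeq v2, non-stranded and poly-A selected, read as 51 bp paired ends, so overlapping genes on opposite strands cannot be told apart. Because FPKM are not counts, depth is unknown and no counting interval is given. A gene was tested if 2 or more libraries reached 1 FPKM (14083 genes), on log2(FPKM + 1), with limma 3.58.1 in R 4.3.3 (trend, moderated variances, 1 mean per group over 29 libraries, 18 residual degrees of freedom). Tests were two-sided, adjusted by Benjamini-Hochberg over all genes tested within each of 11 comparisons and called at 0.05. The model was tested on simulated data. Groups came from the titles. A B220+ library whose title names clone 47G1 and whose genotype is given as wild type was placed in no group. Members and gene lists were chosen with earlier results of these data known. Each member is named in the comparison of FGRS KLS with control LKS-SLAM cells; elsewhere those that pass are named, at most 20, and at most 4 of each further list. Genes named by overlap, by their order among libraries or as examples that did not pass were chosen after their values were seen. Alternatives were another pseudocount (0.1), 2 other filters, quantile normalisation, rescaling, array quality weights, fits of the compared groups alone, and leaving out libraries. Promoter windows and their sequences are from RefSeq on GRCm38.p6, and motifs were searched on both strands with Python 3.11.15, numpy 2.4.6 and pandas 2.3.3. Plots used matplotlib 3.10.9.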

Additional observations from a re-analysis of the deposited data

Results flagged for a closer look

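Herpud1, a scaffold of endoplasmic reticulum degradation, differed between origins in LKS-SLAM cells otherwise than on average in blood. In myeloid cells it was lower in rEC cells too, and in B and CD8 cells the origins overlapped. Its call in the test given next was lost without most single libraries. The origin difference (rEC minus control) in LKS-SLAM cells minus its mean over the 4 blood cell types was −0.997 ± 0.23 on the log2(FPKM + 1) scale (SE; limma adjusted p = 0.0493). Herpud1 averaged 51.9 ± 18.9 FPKM in rEC and 99.0 ± 7.32 FPKM in control LKS-SLAM cells (SD, n = 3 each), 60.4 ± 9.96 FPKM in rEC and 47.1 ± 1.53 FPKM in control CD4 cells (n = 2 each), and 62.5 ± 4.11 FPKM in rEC and 83.8 ± 0.134 FPKM in control myeloid cells (n = 2 each).

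Edem1, which removes misfolded glycoproteins, differed in the same test by −0.86 ± 0.16 (limma adjusted p = 0.0140). It averaged 9.45 ± 0.426 FPKM in rEC and 14.5 ± 2.41 FPKM in control LKS-SLAM cells (SD, n = 3 each), 62.9 ± 3.95 FPKM in rEC and 46.8 ± 1.95 FPKM in control myeloid cells (n = 2 each), and 57.9 ± 2.55 FPKM in rEC and 45.8 ± 2.09 FPKM in control CD8 cells (n = 3 each). In CD4 cells the Edem1 values of the origins overlapped. Both tests include the 2 libraries that stood apart, and without them Herpud1 and Edem1 were among 8 members called. Of all genes, 1000 were then called in place of 80. No group holds 4 or more libraries, so no single library was tested as an outlier.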

How the results depend on the processing

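The counts of members called in FGRS KLS against control LKS-SLAM cells and in the 3 lineage comparisons stayed within 1.5 times under every alternative run. With the compared groups alone, FGRS KLS against rEC LKS-SLAM cells called 17 (32 with all libraries). Without both libraries that stood apart it called 29 higher and 5 lower. All genes called in this comparison were 6335 with all libraries, 900 with the groups alone and 8987 without both. Between rEC and control LKS-SLAM cells the count of 2 became 4 with a pseudocount of 0.1, 20 with array quality weights (3 higher, 17 lower), 12 without both libraries that stood apart and 0 with the groups alone. All genes called went from 186 to 170, 6240, 1554 and 0 under the same settings. For the origin difference in LKS-SLAM against blood the count of 2 became 1 with a pseudocount of 0.1, the 5 FPKM filter, quantile normalisation, rescaling or the groups alone, 15 with weights and 8 without both libraries. All genes called there numbered 80 in the main fit, 5309 with weights and 1000 without both libraries. For CD8 cells the count of 1 became 0 with no filter, the 5 FPKM filter, quantile normalisation or rescaling, 5 with weights, and 3 without both libraries or with the groups alone. All genes called numbered 159 in the main fit, 1764 with weights, 453 without both libraries and 644 with the groups alone. For myeloid cells the count of 0 became 1 (Cebpb) with weights or the groups alone, for B cells 1 (Ddit4) with weights, and for CD4 cells 1 (Cebpb) with the groups alone. All genes called were 368 and 36 in myeloid, 151 in B and 38 in CD4 cells under these settings. The weights were returned before their iteration converged. Leaving out 1 library gave 26 to 28 (FGRS KLS against control), 29 to 33 (against rEC), 1 to 12 (rEC against control LKS-SLAM), 0 to 1 (CD8), 20 to 25 (myeloid lineage), 19 to 21 (B lineage), 25 to 27 (T lineage) and 0 to 7 (LKS-SLAM against blood). Signs that turned in FGRS KLS against control cells were Atf4 with quantile normalisation (−0.31) and rescaling (−0.018), Vldlr with rescaling (−0.084), and Ddit3 (0.10) and Cebpb (0.41) with weights. With 1 library left out Vldlr ranged from −0.40 to 0.40, Ddit3 from −0.44 to 0.065 and Herpud1 from −0.21 to 0.012; none of these had passed. With quantile normalisation signs turned for Pycr1 in the myeloid (0.19), B (0.37) and T (0.059) lineages, Slc7a11 in B (0.12) and T (0.060) and Sesn2 in B (0.11). The cause was not tested.

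Deviations of same-numbered replicates from their group means were weakly correlated (r = −0.0597, 0.0654 and −0.0889) in FGRS KLS and control LKS-SLAM cells. In myeloid cells r was 0.0754 for same-numbered and −0.0754 for other-numbered replicates, mirror values that follow from centring such small groups. With so few libraries per group, these values cannot decide whether the numbers pair the samples. With the replicate number as a block, 29 members (6799 genes) were called in FGRS KLS against control cells and 0 members (40 genes) in myeloid cells, as without it for the members. FPKM carry no counts, so low values such as those of Stc2, Slc7a11 and Chac1 outside the culture have the least precision.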

Other observations

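The library titled B220+ of clone 47G1, primary, but annotated as wild type belongs to no group above. Of the 39 genes in it, Atf4 stood at 181 FPKM, Hspa5 at 94.2 FPKM, Pdia4 at 69.3 FPKM, Herpud1 at 116 FPKM and Phgdh at 35.8 FPKM, while Asns, Cth, Stc2 and Vldlr were listed at 0. Of the members that reached 1 FPKM in it, Psph (10.4 FPKM) and Cebpb (8.08 FPKM) lay above every control B library and the others did not.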
